A study of Mus musculus with 30 samples.

Results

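Wild-type dendritic cells were compared after 30 min with apoptotic Jurkat cells and after 30 min with ovalbumin protein (OVA), over all genes of the count table. The comparison used 6 of the 30 RNA sequencing libraries of the series, 3 in each group, and addressed how the early response to a cell-borne load differed from that to a protein antigen. The dendritic cells were derived from bone marrow of mice with FLT3L (200 ng/ml, 6 to 7 days), a culture that yields plasmacytoid and conventional dendritic cells together. Jurkat is a human T-cell leukaemia line, so the Jurkat libraries could also hold human RNA. Wild-type (WT) cells left untreated gave a baseline for both groups. WT cells given OVA or apoptotic Jurkat cells for 4 h, and Rubcn knockout (KO) cells left untreated or given either agent for 30 min, were used for comparison, with 3 libraries in each group. Strain, age and sex of the mice, the dose of either agent and the ratio of Jurkat to dendritic cells were not given in the sources used here. The titles number the libraries of a group 1 to 3 without saying whether they came from separate mice or cultures, so every p-value measures the spread between libraries, which may be technical.

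Cells that bind or engulf a particle switch on immediate early genes, whose factors (the EGR, FOS, JUN and NR4A families) need no new protein to be transcribed. Pattern-recognition receptors act in addition through NF-kB, which drives Tnf, chemokines and its own inhibitors. Dendritic cells take up dying cells through phosphatidylserine and C-type lectin receptors. Rubicon, the product of Rubcn, acts in LC3-associated phagocytosis, in which LC3 is attached to the phagosome membrane. OVA is a model antigen much used in studies of cross-presentation.

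Total counts ran from 42.3 M to 50.8 M in the 6 libraries, and 14808 of 25611 gene rows were tested. The first principal component held 64.5% of their variance and placed the 3 Jurkat libraries apart from the 3 OVA libraries. Rubcn itself stood at 81.3, 88.3 and 93.0 CPM (counts relative to the TMM-scaled library total) with OVA and at 79.5, 80.5 and 82.7 CPM with Jurkat cells, and did not pass the test (log2 -0.11, edgeR quasi-likelihood FDR 0.0805). Defining markers of the labelled cell type were present: the 15 plasmacytoid markers summed to 5720 CPM with OVA and to 6030 CPM with Jurkat cells, and the 13 markers of type 1 conventional dendritic cells to 3940 and 3700 CPM. The 13 type 2 markers summed to 2690 and 2760 CPM.

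Of the 14808 genes tested, 3591 (24.3%) differed between Jurkat cells and OVA by edgeR's quasi-likelihood test at a Benjamini-Hochberg adjusted p (FDR) under 0.05. They comprised 1765 genes higher with Jurkat cells (11.9% of genes tested) and 1826 lower (12.3%). Most differences were small: the median size over the called genes was 0.23 on the log2 scale, and 412 genes (2.78%) changed at least 2-fold, 396 higher and 16 lower. The libraries of both groups did not overlap in 3354 of the called genes, beside 5310 of all genes tested (35.9%). The level in untreated cells separated the rises into 2 kinds. Of the 396 genes at least 2-fold higher, 365 were under 1 CPM in untreated WT cells and 31 were at or above it, although the latter level held 11896 of the genes tested. Among the 573 genes under 0.1 CPM in untreated cells, 241 were higher and 0 lower. A gene at that level had to reach a higher level in another group to enter the test, so these calls are no count of all such genes. From 10 to 100 CPM, 839 of 6613 genes were higher and 1158 lower.

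**Figure D1:**
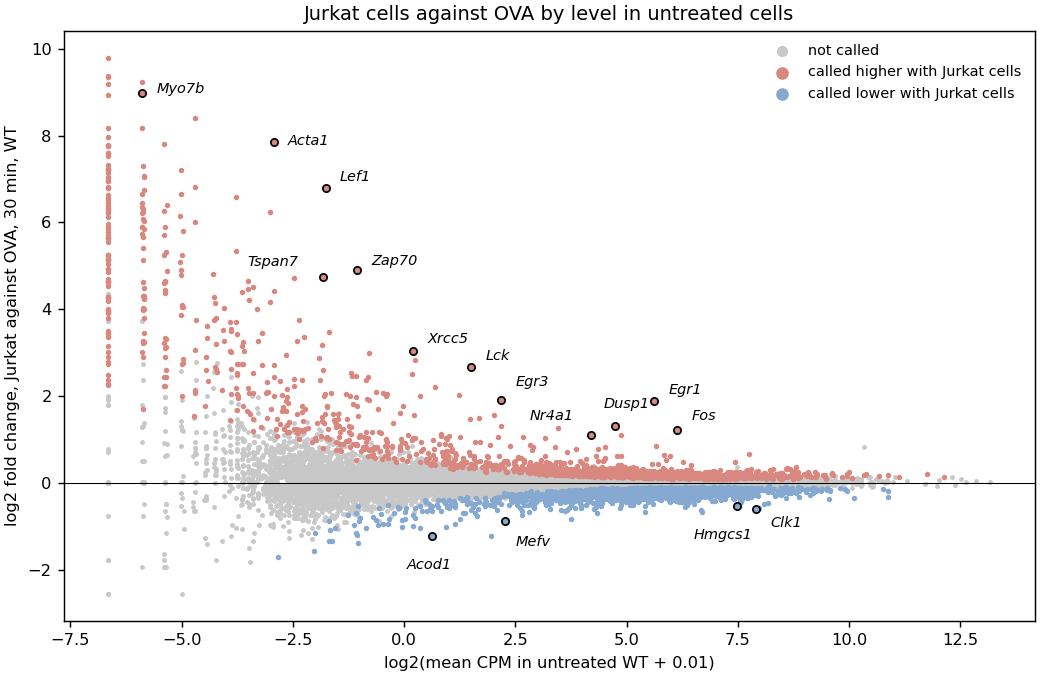
Log2 fold change of Jurkat cells against OVA at 30 min in WT (vertical axis) against the log2 mean CPM of untreated WT cells plus 0.01 (horizontal axis), 1 point per gene tested, coloured by the edgeR call. Of the 396 genes at least 2-fold higher with Jurkat cells, 365 lie under 1 CPM in untreated cells, left of 0 on the horizontal axis; Egr1, Dusp1 and Fos stand out among genes already present.

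Genes absent or nearly absent from dendritic cells led the rises. Lef1, a transcription factor of developing T cells (Entrez 16842, mm10 chromosome 3, 131110297 to 131224357), was at 0.0624, 0.204 and 0.192 CPM with OVA and at 16.4, 17.6 and 17.6 CPM with Jurkat cells. Zap70, the kinase of the T-cell receptor, went from 0.291, 0.449 and 0.426 CPM to 11.8, 12.3 and 11.1 CPM. In both genes every Jurkat library lay far above every OVA library, with log2 fold changes of 6.79 (SE 0.251, FDR 2.17e-17) for Lef1 and 4.90 (SE 0.216, FDR 4.5e-16) for Zap70. Lck, the kinase that acts upstream of Zap70, was already detected with OVA (2.59 ± 0.232 CPM, SD, n = 3) and reached 16.5 ± 0.562 CPM (log2 2.67, FDR 1.66e-14). Myo7b, an unconventional myosin of the brush border, had 3 counts in the OVA libraries together and 1720 with Jurkat cells, a ratio of 577 (95% counting interval 197 to 2799). Acta1, the skeletal muscle actin, went from 4 to 1024 counts. Tspan7, Xrcc5, Slit1, Itm2a, Rpl39l and Aldh1a2 completed the largest rises from a low level, with log2 fold changes from 4.75 for Tspan7 to 2.03 for Aldh1a2. The interval describes counting error alone, because reads may include PCR copies; no use of molecular identifiers is recorded in the labels.

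T-lineage genes were followed as a group, because Jurkat cells are of that lineage. Of 31 tested members of the T-lineage list, 18 were higher (58.1%, beside 11.9% of all genes tested) and 0 lower. The median log2 fold change was 0.82, beside 0.01 over all genes tested. The 17 members under 1 CPM in untreated cells summed to 5.65, 5.86 and 5.51 CPM there, to 5.14, 4.75 and 4.94 CPM with OVA, and to 44.8, 46.4 and 44.0 CPM with Jurkat cells. The Jurkat sum over these 17 genes was 9.11 times the OVA sum. That is a description only, since a gene so low in untreated cells may have entered the test only through a group where it was higher. The same limit holds for the 18 of 31 members called higher and for the median of 0.82, because these 17 genes are among the 31. All 31 members summed to 224 CPM with OVA, 298 CPM with Jurkat cells and 237 CPM untreated. Lef1 and Zap70 made up most of the Jurkat sum over the 17 low genes, at 17.2 and 11.7 CPM. Bcl11b, a factor of T-cell commitment, reached 2.88 ± 0.291 CPM and Cd3e, a chain of the T-cell receptor complex, 2.05 ± 0.0838 CPM. Cd247, Cd3g, Cd6, Sh2d1a, Sit1, Skap1, Themis, Thy1, Trat1 and Ubash3a were at about 1 CPM or under with Jurkat cells. Of these, Cd6, Thy1 and Trat1 were not called, and the others were called higher. With only genes present in untreated cells in the test, 4 list members were called. How the counting treated human reads was not given in the sources used here, and the share of such reads in any rise below was not tested; in bulk RNA a gain per dendritic cell and RNA added with the Jurkat cells cannot be told apart.

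Immediate early genes already expressed at rest were the other leading group. Of 28 tested members of the list, 19 were higher with Jurkat cells (67.9%, beside 11.9% of all genes tested) and 1 was lower, with a median log2 fold change of 0.32, and the same 19 to 1 split was obtained when a trend with transcript length was removed. Egr1, an immediate early zinc finger factor, was at 44.2, 53.1 and 50.1 CPM in untreated cells, at 23.7, 21.2 and 22.3 CPM with OVA and at 80.3, 77.9 and 88.9 CPM with Jurkat cells. OVA libraries thus lay below, and Jurkat libraries above, all untreated ones, and the log2 fold change between the agents was 1.88 (SE 0.0964, FDR 1.4e-14). Against untreated cells Egr1 was lower with OVA (log2 -1.13, FDR 5e-09) and higher with Jurkat cells (0.75, FDR 4.27e-07); both of these share the untreated libraries.

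Egr3, a related factor (mm10 chromosome 14, 70077445 to 70082613), rose stepwise over the 3 groups, from 4.25, 4.48 and 4.78 CPM untreated to 7.32, 7.67 and 6.77 CPM with OVA and to 24.6, 27.0 and 30.4 CPM with Jurkat cells. Its log2 fold change between the agents was 1.91 (SE 0.0784, FDR 1.7e-16). Egr2 followed the same order, with 7.11 ± 0.783, 13.7 ± 2.54 and 25.2 ± 0.185 CPM (log2 0.88 between the agents, FDR 1.04e-05). Nr4a1, an orphan nuclear receptor, was at 18.4 ± 1.29 CPM untreated, 25.95 ± 0.277 CPM with OVA and at 56.1 ± 1.46 CPM with Jurkat cells (log2 1.11, SE 0.0489, FDR 4.5e-16). In Egr2, Egr3 and Nr4a1 no library overlapped between the agents, and both agents were called above untreated cells.

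Genes of AP-1, the dimer of FOS and JUN proteins, were higher with Jurkat cells as well. Fos was at 64.5, 75 and 71.1 CPM untreated, 71.8, 58.9 and 57.9 CPM with OVA and at 148, 132 and 157 CPM with Jurkat cells. Untreated and OVA libraries overlapped (FDR 0.234), and every Jurkat library was higher (log2 1.21 against OVA, SE 0.0807, FDR 5.65e-12). Jun went from 66.4 ± 3.96 CPM with OVA to 102.4 ± 4.88 CPM with Jurkat cells (log2 0.62, FDR 4.01e-09) and Atf3, a stress-induced partner of JUN, from 50.1 ± 3.73 to 89.7 ± 6.13 CPM (log2 0.84, FDR 1.53e-08); neither was called between OVA and untreated cells. Fosb showed another order. It stood at 8.28, 9.85 and 8.61 CPM untreated, 3.93, 3.65 and 3.49 CPM with OVA, and at 7.4, 6.3 and 8.9 CPM with Jurkat cells. Its log2 fold change of 1.03 between the agents (FDR 2.97e-07) therefore went with a fall under OVA (log2 -1.27, FDR 2.35e-08), while Jurkat and untreated cells did not pass the test (log2 -0.24, FDR 0.108). Btg2, an antiproliferative gene, was the member called lower (log2 -0.16, FDR 0.0039). Members not called included Klf6 (log2 -0.04) and Csrnp1 (log2 -0.01). Over the whole list, 19 members were above and 0 below untreated cells with Jurkat cells, and 6 above and 2 below with OVA. Over all genes tested, 14.2% were above and 14.5% below untreated cells with Jurkat cells (28.7% in all), and 5.51% above and 5.15% below with OVA (10.7% in all).

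**Figure D2:**
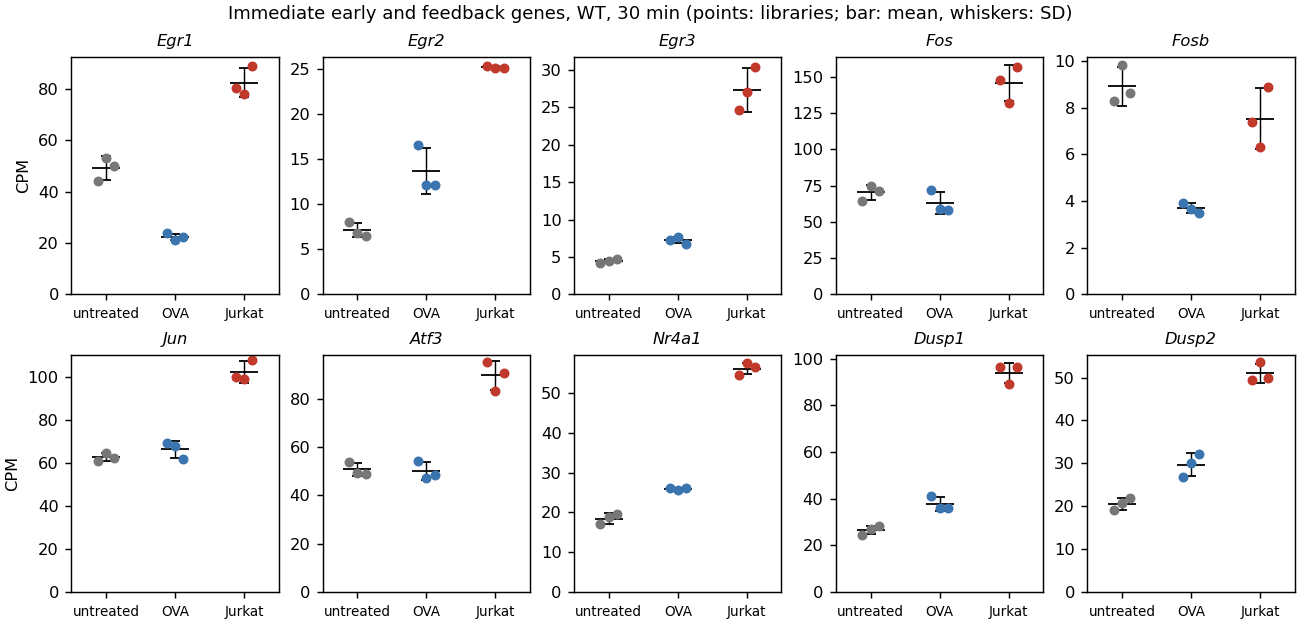
CPM of 10 immediate early and feedback genes in untreated, OVA and Jurkat libraries of WT cells at 30 min; points are libraries, the bar is the mean and the whiskers are the SD over 3 libraries. In each panel the 3 Jurkat libraries lie above the 3 OVA libraries; for Egr1 and Fosb the OVA libraries lie below the untreated ones.

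Feedback regulators, which restrain these signals, were higher in part. Dusp1, a nuclear phosphatase that inactivates MAP kinases (mm10 chromosome 17, minus strand, 26505591 to 26508472), was at 24.6, 26.9 and 28.1 CPM untreated, at 41.1, 36.1 and 35.9 CPM with OVA and at 96.3, 89.1 and 96.2 CPM with Jurkat cells (log2 1.32 between the agents, SE 0.0642, FDR 4.48e-15). The Jurkat libraries stood clear of all others. Dusp2 went from 29.7 ± 2.63 to 51.0 ± 2.27 CPM (log2 0.78, FDR 4.45e-08), Dusp5 from 28.0 ± 1.21 to 43.2 ± 1.13 CPM (log2 0.62, FDR 1.11e-06), and the growth-arrest gene Gadd45g from 3.57 ± 0.614 to 7.40 ± 0.743 CPM (log2 1.06, FDR 1.96e-07). Of 25 tested feedback regulators, 11 were higher (44.0%) and 2 lower (8.0%), with a median of 0.17. Over all genes tested, 11.9% were higher and 12.3% lower, so the share lower was below that of all genes. The members that were lower were Dusp16, a phosphatase that acts on JNK and p38, and Pde4b, a cAMP phosphodiesterase. Dusp16 was at 46.8, 48.1 and 49.0 CPM untreated, 61.7, 62.7 and 59.5 CPM with OVA and at 44.1, 42.9 and 44.5 CPM with Jurkat cells (log2 -0.48, SE 0.0434, FDR 2.27e-09). Its OVA libraries were thus the ones that stood apart, as in Pde4b (54.4 ± 0.658 CPM with OVA, 45.9 ± 1.90 untreated and 47.99 ± 2.20 with Jurkat cells). Id3, an inhibitor of basic helix-loop-helix factors, went from 12.8 ± 1.12 to 30.6 ± 1.39 CPM (log2 1.26, FDR 1.46e-10), and Arrdc3, an arrestin-domain gene, from 27.6 ± 1.74 to 59.4 ± 5.08 CPM (log2 1.11, FDR 8.22e-10).

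The upstream DNA of 3 genes of these groups is shown because each holds a motif of a factor known to act on it: the cAMP response element of CREB and ATF factors in Dusp1, and the NF-kB site in Ier3, an early stress gene, and in Cxcl2, a neutrophil chemokine. Each stretch is 120 bases of RefSeq sequence (GRCm38.p6), 5′ to 3′ on the gene's strand, with the motif in capitals. That of Dusp1 is chr17:26508496-26508615 on the minus strand, that of Ier3 chr17:35821593-35821712 on the plus strand and that of Cxcl2 chr5:90903779-90903898 on the plus strand.
Dusp1: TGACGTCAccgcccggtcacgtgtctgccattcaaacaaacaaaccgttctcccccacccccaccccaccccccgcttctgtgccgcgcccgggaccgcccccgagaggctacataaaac
Ier3: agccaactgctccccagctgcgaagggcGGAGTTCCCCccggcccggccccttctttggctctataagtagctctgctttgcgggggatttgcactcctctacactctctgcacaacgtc
Cxcl2: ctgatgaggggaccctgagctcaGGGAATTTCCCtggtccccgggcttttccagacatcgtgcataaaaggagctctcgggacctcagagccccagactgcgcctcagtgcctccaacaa

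The motif lay 143 to 136 bases upstream of the annotated start in Dusp1, 92 to 83 in Ier3 and 97 to 87 in Cxcl2, where 2 overlapping matches on the same bases make up the capitals. The 250 bases upstream of each start were searched on both strands for TGACGTCA, for the NF-kB site and for the CArG box (A or T bases between CC and GG). Of 11355 tested genes with a promoter entry, 2.87% held TGACGTCA, 5.59% the NF-kB site and 1.42% the CArG box. Of 21 matched immediate early genes, 2 held TGACGTCA, 5 the NF-kB site and 2 the CArG box. Of 21 matched feedback regulators, 3 held TGACGTCA, 1 the NF-kB site and 1 the CArG box. In the NF-kB list 15 of 29 matched genes held the NF-kB site, with 5 of 10 among those called higher with Jurkat cells and 2 of 5 among those called lower. Ier3 itself went from 16.7 ± 0.906 CPM with OVA to 27.5 ± 1.83 CPM with Jurkat cells (log2 0.72, FDR 3.24e-09). A match describes letters in the window and does not show binding.

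NF-kB and early inflammatory genes included members of both directions. Of 34 tested members, 12 were higher with Jurkat cells (35.3%), 5 were lower (14.7%) and 17 did not pass the test, and the median was 0.07. Over all genes tested, 11.9% were higher and 12.3% lower, so the share lower was near that of all genes. The count of members lower lay between 2 and 6 over the alternative settings. Against untreated cells, 19 members were higher with each agent and 0 lower, so the list moved with both; these counts share the untreated libraries. Tnf, the early inflammatory cytokine (mm10 chromosome 17, 35199367 to 35202007), was at 9.73, 11.5 and 10.2 CPM untreated, at 56.1, 55.2 and 51.1 CPM with OVA and at 97.4, 102 and 87.8 CPM with Jurkat cells (log2 0.82 between the agents, SE 0.0887, FDR 7.52e-08). Cxcl2 was at 0.957, 0.367 and 0.612 CPM untreated, 22.1, 19.9 and 18.4 CPM with OVA and at 35.8, 36.3 and 34.5 CPM with Jurkat cells (log2 0.82, SE 0.114, FDR 5.12e-06). Both genes were thus raised by OVA and stood higher still with Jurkat cells, with no overlap at either step. The chemokine Ccl3 went from 11.4 ± 0.525 to 23.6 ± 1.41 CPM (log2 1.05, FDR 2.16e-05), and Ccl4 and the cyclooxygenase gene Ptgs2 had log2 fold changes of 0.94 and 1.03. Zfp36, whose protein destabilises Tnf mRNA, was at 224.2 ± 0.974 CPM with OVA and at 353.2 ± 13.0 CPM with Jurkat cells (log2 0.66, FDR 2.21e-10), and not above untreated cells with OVA (FDR 0.573).

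The members that were lower with Jurkat cells were Acod1, Icam1, Tnip3, Nfkbie and Bcl3. Acod1, which makes itaconate (mm10 chromosome 14, 103047012 to 103056573), was at 1.76, 1.49 and 1.35 CPM untreated, 11.0, 10.2 and 10.3 CPM with OVA and at 4.33, 5.69 and 3.59 CPM with Jurkat cells. The Jurkat libraries lay between the others, and the fold change between the agents (log2 -1.23, SE 0.416, FDR 0.0305) lost its call when any library other than Jurkat replicate 2 was left out. In KO cells Acod1 was higher with Jurkat cells (log2 1.60, FDR 0.0117). Icam1, an adhesion molecule, was at 119, 128 and 126 CPM with OVA and at 89.9, 98.8 and 94.2 CPM with Jurkat cells (log2 -0.40, FDR 0.000333), beside 96.9 ± 3.57 CPM untreated. Tnip3, an inhibitor of NF-kB signalling, was at 66.5 ± 6.18 CPM with OVA, 48.8 ± 3.82 CPM with Jurkat cells and 38.2 ± 1.44 CPM untreated (log2 -0.45, FDR 0.00077). Nfkbie and Bcl3, members of the IkB family, had log2 fold changes of -0.19 (FDR 0.0107) and -0.27 (FDR 0.0118). Of the other members of the list, Nfkbia and Nfkbib were higher with Jurkat cells (log2 0.22 and 0.20), and Tnfaip3 and Nfkbiz were among those that did not pass the test. Tnfaip3 was at 96.2 ± 2.41 CPM with OVA and at 99.2 ± 3.34 CPM with Jurkat cells (FDR 0.676) and Nfkbiz at 63.2 ± 2.78 and 67.4 ± 0.887 CPM (FDR 0.508). Against untreated cells Tnfaip3 had log2 fold changes of 0.73 with OVA and 0.77 with Jurkat cells, and Nfkbiz 0.78 and 0.87.

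Among 33 tested cytokines and chemokines outside that list, 7 were higher with Jurkat cells (21.2%, beside 11.9% of all genes tested) and 0 lower, with a median of 0.15. Il10, an anti-inflammatory cytokine, was at 0.873, 0.938 and 0.788 CPM with OVA and at 2.19, 1.9 and 2.85 CPM with Jurkat cells, against 0.268 ± 0.117 CPM untreated (log2 1.42, SE 0.227, FDR 3.33e-05). Its levels were low in every group. The monocyte chemokines Ccl2 and Ccl7 and the IL-6 family cytokine Osm were also higher, with no overlap between the agents. Ccl2 went from 2.68 ± 0.265 to 5.62 ± 0.836 CPM (log2 1.06, FDR 1.42e-06), Osm from 2.64 ± 0.0591 to 5.53 ± 0.256 CPM (log2 1.07, FDR 1.05e-06) and Ccl7 from 2.10 ± 0.209 to 3.86 ± 0.161 CPM (log2 0.87, FDR 4.18e-05).

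The largest falls were of a few genes that OVA had raised and of genes that Jurkat cells had lowered. In the former kind, Mefv, which encodes pyrin, was at 5.17, 4.68 and 4.53 CPM untreated, 11.5, 9.95 and 9.01 CPM with OVA and at 5.32, 4.79 and 6.37 CPM with Jurkat cells (log2 -0.88, SE 0.111, FDR 1.08e-06). Its OVA libraries stood alone, and Jurkat and untreated cells did not pass the test (FDR 0.221). Zc3h6, a zinc finger gene, and Dennd4a, a Rab exchange factor, had the same order, with log2 fold changes of -0.73 (FDR 1.55e-06) and -0.67 (FDR 4.79e-08). Cdc42ep2, a Cdc42 effector, also followed it, although Jurkat cells were called above untreated cells (log2 -0.84 between the agents, FDR 3e-06). In the latter kind, Acrbp was at 13.1, 14.0 and 13.1 CPM untreated, 11.5, 10.4 and 12.6 CPM with OVA and at 5.73, 7.02 and 6.48 CPM with Jurkat cells (log2 -0.84, SE 0.1, FDR 3.84e-07). Zfp790 was at 20.3 ± 0.168, 19.8 ± 0.905 and 12.3 ± 0.397 CPM (log2 -0.69, FDR 4.08e-10) and Klhl42, of the kelch family, at 42.7 ± 1.57, 46.1 ± 1.10 and 28.9 ± 1.13 CPM (log2 -0.67, FDR 2.23e-11). Zfp780b, Zfp948, Dnajc28 and Zfp607a lay between -0.64 and -0.63.

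Zinc finger genes of the Zfp series, many of them KRAB repressors, ranked first among the lists by number of members lower, not by share. Of 322 tested, 113 were lower (35.1%, beside 12.3% of all genes tested) and 13 higher with Jurkat cells (4.04%), with a median of -0.15. Zfp318 was at 67.6, 66.6 and 67.0 CPM with OVA and at 49.4, 48.8 and 49.1 CPM with Jurkat cells, against 62.9 ± 0.878 CPM untreated (log2 -0.45, SE 0.0357, FDR 1.97e-10). Zfp629 (log2 -0.53, FDR 2.06e-08) and Zfp263 (log2 -0.28, FDR 3.16e-07) also fell. Against untreated cells, 118 members were lower and 24 higher with Jurkat cells, and 20 lower and 18 higher with OVA. With the length trend removed, 94 members were lower and 16 higher. Of the members that rose, Zfp36 is an mRNA decay factor and not a KRAB repressor, and Zfp711 was nearly undetected outside Jurkat libraries (0.0137 ± 0.0119 CPM with OVA, 1.41 ± 0.250 CPM with Jurkat cells).

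Sterol synthesis genes were lower with Jurkat cells in 10 of 26 tested members (38.5%, beside 12.3% of all genes tested) and higher in 0, with a median of -0.12. Hmgcs1, the synthase of the HMG-CoA step (mm10 chromosome 13, 119690351 to 119708260), was at 193, 171 and 170.0 CPM untreated, 250, 271 and 236 CPM with OVA and at 176, 172 and 171 CPM with Jurkat cells (log2 -0.54, SE 0.0711, FDR 1.82e-06). The OVA libraries were high and the Jurkat libraries overlapped the untreated ones. Lss and Acat2, a late and an early enzyme, had log2 fold changes of -0.35 (FDR 4.63e-05) and -0.34 (FDR 2.09e-05). Against untreated cells, 10 members were higher and 0 lower with OVA, and 3 higher and 3 lower with Jurkat cells. The same count of 10 was obtained with the length trend removed, and over all other settings it lay between 8 and 10. Sqle, the squalene epoxidase, did not pass the test (log2 -0.13, FDR 0.078).

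**Figure D3:**
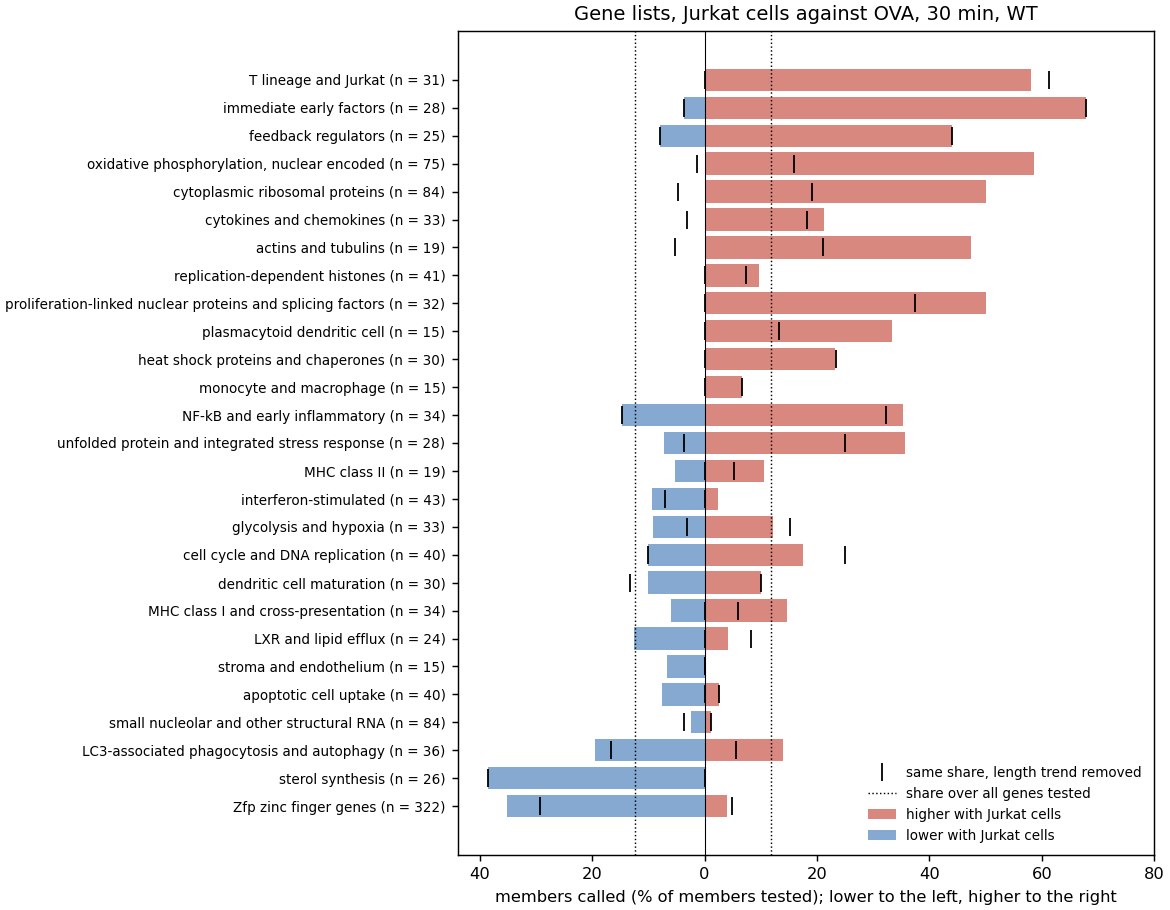
Share of tested members of each gene list called higher (right) or lower (left) in WT Jurkat libraries against OVA libraries at 30 min, in percent; dotted lines give the share over all genes tested and short vertical lines the share with the length trend removed. With the trend removed, 19 immediate early genes are called higher and 10 sterol genes lower, the same numbers as with it, whereas oxidative phosphorylation goes from 44 to 12 calls and ribosomal proteins from 42 to 16.

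Genes of oxidative phosphorylation and of the ribosome were higher in broad but small shifts. Of 75 nuclear genes of oxidative phosphorylation, 44 were higher (58.7%) and 0 lower (median 0.16), and of 84 cytoplasmic ribosomal protein genes 42 were higher (50%) and 0 lower (median 0.15). Over all genes tested, 11.9% were higher and 12.3% lower. Ndufb9, a subunit of complex I, was at 57.5, 56.0 and 58.5 CPM with OVA and at 71.2, 69.2 and 63.7 CPM with Jurkat cells (log2 0.25, FDR 5.43e-05), and Rps21 at 378.0 ± 19.9 and 467.8 ± 29.1 CPM (log2 0.31, FDR 9.93e-05). These are short genes, and the fold change moved with transcript length over the whole table. Among 11777 genes at or above 1 CPM in untreated cells, the quintile with the shortest transcripts (64 to 1992 bases) had 628 genes higher and 94 lower, and the quintile with the longest (5265 to 123179 bases) 81 higher and 724 lower. Their medians were 0.10 and -0.09, against 0.03 and -0.02 in KO. The shortest quintile minus the longest, each against the untreated mean, was 0.18, 0.15 and 0.07 on the log2 scale in Jurkat libraries 1 to 3 and -0.06, -0.10 and 0.01 in OVA libraries 1 to 3, so that Jurkat library 3 stood closest to the OVA group. With the trend removed, 12 oxidative phosphorylation genes were higher and 1 lower, and 16 ribosomal protein genes higher and 4 lower. The part of RNA quality or library preparation in that trend was not tested. Rpl10l, Rpl32l and Rpl39l, retrogene-like copies whose reads the counting could share with other copies, were the members with the largest changes: Rpl10l had no count with OVA and stood at 2.52 ± 0.283 CPM with Jurkat cells.

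**Figure D4:**
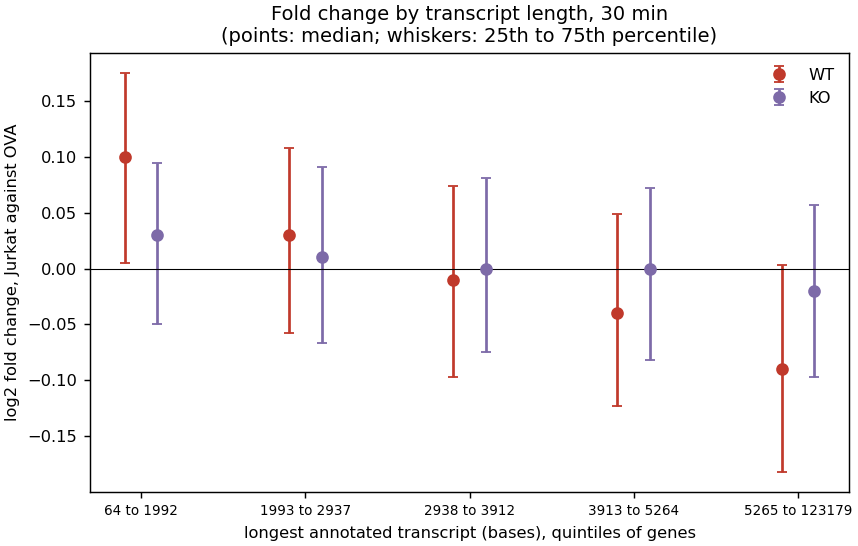
Median log2 fold change of Jurkat cells against OVA at 30 min in quintiles of genes by the length of their longest annotated transcript, for WT and KO; whiskers span the 25th to the 75th percentile of genes. The WT median falls from 0.10 in the shortest quintile to -0.09 in the longest, and the KO median from 0.03 to -0.02.

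Genes of antigen presentation and maturation showed small differences at 30 min. Of 34 MHC class I and cross-presentation genes, 5 were higher (14.7%) and 2 lower (5.88%), a share near that of all genes (median 0.02). The immunoproteasome subunits Psmb9 (log2 0.22, FDR 0.000698) and Psmb8 (0.13, FDR 0.0153) and the Toll-like receptor chaperone Unc93b1 (0.14, FDR 0.00325) were higher. Lnpep, a peptidase of endosomal cross-presentation, and Wdfy4, which is required for cross-presentation by type 1 conventional dendritic cells, were lower (log2 -0.27, FDR 0.0135, and -0.14, FDR 0.0431). Of 19 MHC class II genes, 2 were higher (10.5%) and 1 lower (5.26%), both below the shares of all genes (11.9% and 12.3%). Ctsh and H2-Ab1 were higher (log2 0.14 and 0.13), and Ciita, the master regulator of class II genes, was lower (-0.14, FDR 0.0168). Of 30 maturation genes 3 were higher and 3 lower (10% each), at or below the share of all genes. Cd83 was at 172.0 ± 3.19 CPM with OVA and at 201.9 ± 19.5 CPM with Jurkat cells (log2 0.23, FDR 0.0171), and the co-stimulatory ligand Cd86 at 86.4 ± 2.44 and 74.2 ± 3.84 CPM (log2 -0.22, FDR 0.0196). Cd86 with Jurkat cells was near its untreated level of 72.9 ± 1.41 CPM. Eno2, also in the maturation list, is a glycolytic enzyme (log2 0.84). With the length trend removed, Psmb8, Lnpep, Wdfy4, H2-Ab1 and Ciita lost their calls, and 2 class I genes were higher and 0 lower.

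Few genes for the uptake of apoptotic cells passed the test, with 1 of 40 higher and 3 lower (median -0.01), below the share of all genes. Tyro3, a phosphatidylserine-dependent receptor kinase, went from 0.585 ± 0.189 to 1.13 ± 0.241 CPM (log2 0.95, FDR 0.00593), a low level in both groups. The engulfment regulators Dock2 and Dock1 and the integrin Itgav had log2 fold changes of -0.14, -0.18 and -0.17, and none of them was called with the length trend removed. Of 36 genes of LC3-associated phagocytosis and autophagy, 5 were higher (13.9%) and 7 lower (19.4%, median -0.03). The shares over all genes tested were 11.9% and 12.3%. With the length trend removed, 2 of the 36 were higher and 6 lower. Atg16l1, which brings LC3 lipidation to the membrane, was at 65.3, 64.4 and 65.0 CPM with OVA and at 55.1, 54.9 and 56.4 CPM with Jurkat cells, without overlap (log2 -0.23, SE 0.0358, FDR 2.9e-05). Atg14, a subunit of the PI3-kinase complex of autophagy, was also lower (log2 -0.30, FDR 0.0001), whereas Cyba, a subunit of the phagosomal oxidase, was higher (log2 0.19, FDR 0.00399; 0.03 and not called with the length trend removed). Tfeb and Tfe3, related lysosomal factors, differed in direction (log2 0.20 and -0.21). Of 43 interferon-stimulated genes, 1 was higher (2.33%) and 4 lower (9.3%, median 0.05), both below the shares of all genes (11.9% and 12.3%). Stat2 and Irf9, partners in the interferon-activated factor ISGF3, had log2 fold changes of -0.47 (FDR 5.37e-06) and -0.19 (FDR 0.00303), and Bst2 was higher by 0.13 (FDR 0.0421; -0.02 with the length trend removed).

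Markers of cell types in the culture showed few calls, to be read against the 11.9% of all genes higher and 12.3% lower. Plasmacytoid markers were higher in 5 of 15 (33.3%) and lower in 0, among them Cox6a2 (log2 0.27), Ly6d (0.26) and Irf8 (0.14, FDR 0.0128), and in 2 with the length trend removed. Type 1 conventional markers were higher in 0 of 13 and lower in 2 (15.4%; Ppt1 and Wdfy4, both log2 -0.14), of which Ppt1 was called with the length trend removed. Type 2 markers were higher in 2 of 13 (15.4%; Cd209a, 0.24, and Clec10a, 0.21) and lower in 0, and 2 and 1 with the trend removed. Both shares lie near those of all genes. Neutrophil markers were higher in 3 of 12 (25%), and in 1 with the trend removed, with a sum of 152 to 179 CPM with OVA and of 184 to 213 CPM with Jurkat cells, and the monocyte sum ran from 5300 to 6000 CPM and from 5860 to 6320 CPM. No member was called among 10 B-cell, 6 natural killer cell and 2 erythroid markers. In bulk RNA, fewer cells of a type and less RNA per cell cannot be told apart, and the part of such shifts in the results above was not tested.

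The same contrast in Rubcn KO cells called 1514 genes (10.2%), 785 higher (5.30%) and 729 lower (4.92%). The KO libraries were less even, since OVA replicate 3 held 9.73 M counts, and the count was 832 without KO Jurkat replicate 1, 995 without KO Jurkat replicate 2 and 852 without KO OVA replicate 2. Of the genes higher in WT, 478 were higher in KO as well, 27.1% of the WT list and 60.9% of the KO list, and 530 were lower in both (29.0% and 72.7%). Called in opposite directions were 2 genes. The direction was shared by 88.2% of the genes higher in WT, beside 51.8% of all genes tested with a positive fold change in KO, and by 90.9% of those lower. Immediate early genes were higher in 19 of 28 in KO too, with log2 fold changes of 2.11 for Egr1 and 2.20 for Egr3, while the T-lineage sum was 32.7, 34.0 and 22.6 CPM in the KO Jurkat libraries. Sterol genes were lower in 2 of 26 in KO. Other lists had more members higher in KO: 24 of 43 interferon-stimulated genes were higher and 0 lower (1 and 4 in WT), although 10 were higher and 1 lower without KO Jurkat replicate 1 and 15 higher without KO OVA replicate 2. NF-kB genes were higher in 20 of 34 and lower in 0 in KO (12 and 5 in WT), and in 17 and 1 without KO Jurkat replicate 1. The list counts were not tested between genotypes.

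An interaction term tested whether the contrast depended on genotype, and 11 genes (0.0743%) passed by edgeR. The 4 with the smallest p were NF-kB genes with a larger difference in KO. Cxcl2 was at 9.56, 9.86 and 7.72 CPM in KO with OVA and at 51.1, 35.4 and 42.8 CPM in KO with Jurkat cells, a log2 fold change of 2.19 against 0.82 in WT (difference -1.37, SE 0.177, FDR 0.000276). Tnf was at 39.4 ± 2.92 and 120.8 ± 19.4 CPM in KO (log2 1.63; difference -0.81, FDR 0.00361). Tnfaip3, the ubiquitin-editing inhibitor A20 that did not pass the test in WT, was at 79.8 ± 3.38 and 124.6 ± 16.4 CPM in KO (log2 0.65; difference -0.60, FDR 0.00319), and Nfkbiz had a difference of -0.74 (FDR 0.0118). For all 4 genes the KO OVA libraries lay below the WT OVA libraries. Tox and H1fx were among the 5 genes with a larger difference in WT (1.12 and 1.08). The number of genes that passed was unstable when a library was left out: 100 without KO Jurkat replicate 2, 27 without KO Jurkat replicate 3, 19 and 3 without KO OVA replicates 1 and 2, 5, 5 and 4 without WT Jurkat replicates 1, 2 and 3, and 3 and 7 without WT OVA replicates 1 and 2. Cxcl2 passed in all of its 21 alternative settings, Tnf and Tnfaip3 in 21 of 22 and Nfkbiz in 19 of 22.

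**Figure D5:**
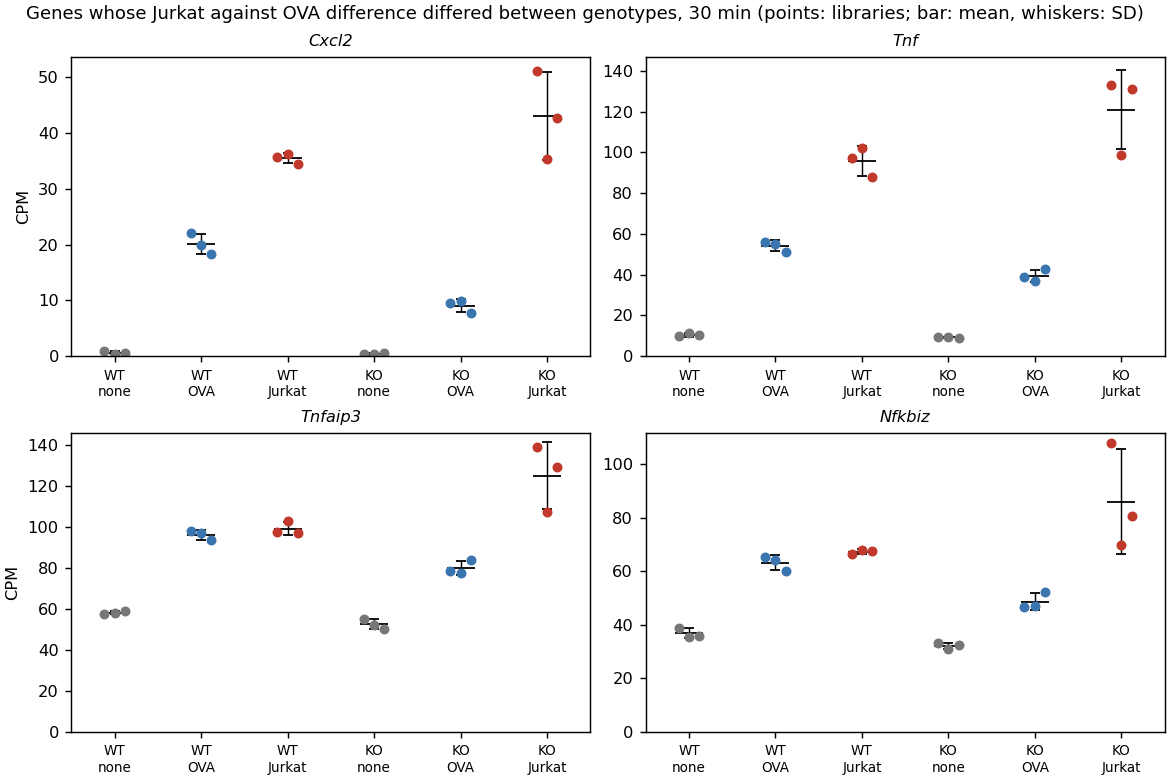
CPM of Cxcl2, Tnf, Tnfaip3 and Nfkbiz in untreated, OVA and Jurkat libraries at 30 min for WT and KO; points are libraries, the bar is the mean and the whiskers are the SD over 3 libraries. In every panel the 3 KO OVA libraries lie below the 3 WT OVA libraries and the KO Jurkat libraries spread more widely than the WT ones.

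After 4 h the contrast took in more genes, with 11471 called (77.5%), 5508 higher with Jurkat cells (37.2%) and 5963 lower (40.3%). Of the 1765 genes higher at 30 min, 975 were higher and 545 lower at 4 h, and of the 1826 lower genes 941 were lower and 648 higher. The difference between times passed the test in 9837 genes (66.4%), 4494 up and 5343 down. The split depends on scaling: with total counts 2451 of 10755 were up and the median of all genes moved from -0.05 to -0.44. Tnf had a log2 fold change of 4.66 at 4 h against 0.82 at 30 min, and Egr1 one of -0.18 (FDR 0.0806) against 1.88. Several genes lower at 30 min were higher with Jurkat cells at 4 h, with log2 fold changes of 2.99 for Acod1, 2.54 for Icam1, 1.21 for Mefv and 1.47 for Hmgcs1. Acrbp and Klhl42 stayed lower, at -1.25 and -1.81. The 4 genes with the smallest p for the difference between times were Lbh, Rnf144b, Dna2 and Klf4. Lbh, a transcription cofactor, was at 268.1 ± 6.87 and 268.9 ± 4.21 CPM with OVA and Jurkat cells at 30 min, and at 235.7 ± 4.58 and 21.2 ± 0.850 CPM at 4 h (difference -3.48, SE 0.0525, FDR 4.63e-28). Klf4 was slightly higher with Jurkat cells at 30 min (log2 0.14, FDR 0.0191) and lower at 4 h (-3.38).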

How the data were processed

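The members and gene lists were chosen with earlier results of these data known, so their direction is no independent evidence. The authors deposited whole-number read counts per gene, with Entrez identifiers and mm10 intervals per the file headers. The submitters' processing notes name STAR 2.5, Subread, featureCounts 1.5.0-p1 and DESeq2; the sources used here do not give the annotation, strand use or treatment of human reads, so genes that overlap or have near-identical copies are uncertain. Counts were scaled with TMM and filtered with filterByExpr by group (14808 genes, 99.99% of counts). edgeR 4.0.16 (R 4.3.3) fitted group means over all 30 libraries (20 residual degrees of freedom), with two-sided quasi-likelihood F tests and Benjamini-Hochberg FDR under 0.05. The SE is the fold change over the square root of F. Transcript lengths are the longest of GENCODE M21, matched for 98.7% of genes tested. On simulated counts with 1 common spread for all genes, the fit called 100.0% of 1.5-fold and 68.0% of 1.25-fold changes. Only well-counted genes were changed there, so the simulation does not cover low genes, smaller changes or spread that differs between genes.

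Genes named are the 12 largest rises and 12 largest falls (called, 5 CPM or more in the higher group, no overlap among 6 libraries), the 8 largest rises from at least 5 CPM untreated, up to 4 members per list and direction and 4 per interaction by smallest p; predicted symbols were passed over. Rubcn, Egr2, Jun, Atf3, Ier3, Klf6, Csrnp1, Ccl4, Ptgs2, Sqle, Tox, H1fx, Cd3e and the low T-lineage genes were named after their values were seen. The same holds for Nfkbia and Nfkbib. Alternatives were DESeq2 1.42.0 and its size factors, total counts, TMM from genes present in untreated WT, no filter, a stricter filter (5 CPM or more in 3 libraries), only genes present in untreated WT, only the groups compared, a replicate block and leaving out each library. Removing the length trend as an offset was added after seeing the data.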

Additional observations from a re-analysis of the deposited data

Results flagged for a closer look

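Of the difference between Jurkat cells and OVA at 30 min, 4 genes named by the rule differed between genotypes by an interaction term in edgeR. The WT minus KO difference on the log2 scale was -1.37 for Cxcl2, -0.60 for Tnfaip3, -0.81 for Tnf and -0.74 for Nfkbiz. Without KO Jurkat replicate 1, the library with the highest level of all 4 genes, the differences were -1.23, -0.52, -0.74 and -0.55. Between 4 h and 30 min in WT the same contrast differed by -3.48 for Lbh, -3.21 for Rnf144b, -2.56 for Dna2 and -3.52 for Klf4. These 4 passed the test in all 22 alternative settings, with ranges of -3.86 to -3.31, -3.60 to -3.13, -2.94 to -2.48 and -3.91 to -3.35.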

How the results depend on the processing

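The count of genes called in WT (3591) lay between 2596 (without WT OVA replicate 2) and 3739 over the alternatives, and the share higher between 43.0% and 51.7%. Genes changed at least 2-fold numbered 46 with the stricter filter and 37 with only genes present in untreated WT, since both leave out genes of low level. With the length trend removed 2850 genes were called, 2382 of them also called without it, and Bst2 turned to -0.02. The KO count was 734 with only the groups compared and 832 to 1592 with a library left out. The genotype difference was called in 42 genes without a filter, 25 with the stricter filter, 1 with only the groups compared, 106 by DESeq2, 7 with the length trend removed and 3 to 100 with a library left out; the cause was not tested. The T-lineage sum with Jurkat cells (45.0 CPM) was 47.1 CPM with total counts and 298.0 CPM with all 31 members, which summed to 224 CPM with OVA. Over 154 named genes and 16 settings, 2247 of 2437 fold changes kept direction and call, 189 lost the call and 1 turned.

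Deviations of same-numbered libraries from their group means correlated at 0.276, 0.087 and 0.00243, and those of unlike-numbered libraries at -0.222 to 0.151. These values do not settle whether equal numbers mark a shared origin, and the main fit did not pair them. With the replicate number as a block, 3739 genes were called in WT, 1697 in KO, 35 for the genotype difference and 9905 for the time difference.

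Small fold changes are limited by 3 libraries a group; in the lowest genes counts are few, and an absent count does not show an absent transcript.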

Other observations

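Stress lists had a larger share of members higher than all genes tested, of which 11.9% were higher and 12.3% lower, and the glycolysis list did not. Of 28 genes of the unfolded protein and integrated stress response, 10 were higher with Jurkat cells (35.7%) and 2 lower (median 0.06). With the length trend removed, 7 were higher and 1 lower. Against untreated cells, 6 members were higher and 6 lower with Jurkat cells, and 1 higher and 4 lower with OVA. Ppp1r15a, the phosphatase subunit that reverses eIF2 phosphorylation, was at 24.1, 26.2 and 25.6 CPM with OVA and at 35.8, 38.3 and 38.9 CPM with Jurkat cells (log2 0.57, edgeR FDR 5.1e-09). Chac1, a glutathione-degrading target of ATF4, was low in both groups (0.332 ± 0.101 and 1.26 ± 0.255 CPM, SD, n = 3, log2 1.91), and Atf4 itself had a log2 fold change of 0.17 (FDR 0.001). The sensors Ern1 and Atf6 were lower (log2 -0.39 and -0.18). Of 30 heat shock and chaperone genes 7 were higher (23.3%) and 0 lower. Against untreated cells, 4 of the 30 were higher and 3 lower with Jurkat cells, and 1 higher and 7 lower with OVA. Hsph1 went from 40.5 ± 0.226 CPM with OVA to 48.6 ± 0.952 CPM with Jurkat cells, both below 56.9 ± 0.452 CPM untreated. Of 33 genes of glycolysis and hypoxia 4 were higher (12.1%) and 3 lower (9.09%), near the share of all genes. The glucose transporter gene Slc2a1 was higher (log2 0.24, FDR 0.000714), and Pfkfb3, which drives the key step of glycolysis, was lower (log2 -0.20, FDR 0.00167). Ldhb, a lactate dehydrogenase subunit, went from 3.19 ± 0.298 to 8.99 ± 0.866 CPM (log2 1.49, FDR 1.62e-09).

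In a mixed list of proliferation-linked nuclear proteins and splicing factors, 16 of 32 members were higher and 0 lower (median 0.10). Beside this, 11.9% of all genes tested were higher and 12.3% lower. With the length trend removed, 12 members were higher. Many members are splicing factors, so these counts do not measure proliferation. H3f3b, a histone H3.3 gene, was at 489, 477 and 468 CPM with OVA and at 630.0, 601 and 610.0 CPM with Jurkat cells (log2 0.36, FDR 2.26e-06), beside 448.0 ± 17.2 CPM untreated. Of 40 cell cycle genes 7 were higher (17.5%) and 4 lower (10%), near the share of all genes. Tyms, the thymidylate synthase, was higher (log2 0.36, FDR 1.62e-05), and Mki67, the Ki-67 gene, was lower (log2 -0.14, FDR 0.0131; -0.02 and not called with the length trend removed). Of 41 replication-dependent histone genes 4 were higher (9.76%) and 0 lower, both below the shares of all genes, and 32 of the 41 were under 1 CPM untreated. Hist3h2a was the member with the smallest p (14.2 ± 0.784 CPM with OVA, 20.8 ± 0.625 CPM with Jurkat cells, log2 0.55, FDR 1.24e-08). Of 19 actin and tubulin genes 9 were higher (47.4%) and 0 lower, and 4 and 1 with the length trend removed. Tubb3, the neuronal tubulin, went from 3.61 ± 0.173 to 8.94 ± 0.390 CPM (log2 1.31, FDR 1.86e-09). Among 24 genes of the LXR pathway and lipid efflux, 1 was higher (4.17%) and 3 lower (12.5%), the latter near the share of all genes. Arl4c was higher (log2 0.23, FDR 6.63e-05), and Fasn, Scd2 and Abca7 were lower (log2 -0.21, -0.19 and -0.16), the latter 3 without a call once the length trend was removed. Of 84 small nucleolar and other structural RNA genes 1 was higher (1.19%) and 2 lower (2.38%), both below the shares of all genes. The share of human reads in these values was not tested.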
